A study of Mus musculus with 3 samples.

Results

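The cells described here are those among sorted Pthrp-mCherry+ molar cells that carried Csf1r, which encodes the receptor for the macrophage growth factor CSF1. They were chosen on their counts: at least 2 UMIs (unique molecular identifiers, each standing for 1 captured transcript) of Csf1r, at least 3 UMIs of Tyrobp and Fcer1g together, and under 1% of UMIs from S100a8 and S100a9, which mark neutrophils. A cell was kept where 500 or more genes were detected and no more than 20% of its UMIs were mitochondrial, and 608 of 24328 kept cells met the rule. Mandibular molars were taken from Pthrp-mCherry knock-in mice, which carry mCherry at the Pthlh locus, on a C57BL/6 background, with animals pooled within an age. Single cells were released enzymatically, sorted for mCherry by FACS, and sequenced with the 10x Genomics 3' kit at postnatal day 15 (P15), day 25 (P25) and 8 weeks. All groups had the same genotype and no treatment, and the labels call the sorted cells cementoblasts and precursors. Each age had 1 library, so no test between ages was possible; the 95% intervals given below are exact and cover counting error only.

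Macrophages and monocytes depend on CSF1 receptor signaling. Tissue macrophages clear dying cells, present antigen on MHC class II molecules and secrete complement, cytokines and growth factors. Osteoclasts arise from the same lineage by cell fusion under RANKL, and in the periodontium they resorb bone and tooth roots.

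At P15, 398 of 11412 kept cells were Csf1r cells, a share of 3.49% (3.16 to 3.84%). At P25 the share was 2.25% (187 of 8325 cells, 1.94 to 2.59%). At 8 weeks it was 0.501% (23 of 4591 cells, 0.318 to 0.751%). The order of the 3 libraries was P15 above P25 above 8 weeks. Their intervals did not overlap, but they cover counting within 1 library per age and not variation between libraries. The sort gate and dissociation set what share of macrophages entered each library, so these shares are shares of sorted cells. The median depth of Csf1r cells was 13020.5, 17610 and 11056 UMIs in the P15, P25 and 8-week libraries, beside 15331.5, 16560.5 and 9361 UMIs in the other kept cells. Summed over cells, the libraries gave 6088451, 3879301 and 255284 UMIs in the 21446 genes shared by all 3 tables, so that 3 UMIs, used as the floor for a count of 0, equal 0.493, 0.773 and 11.8 CPM, counts scaled to a total of 1000000. The exact two-sided 95% interval of a count of 0 reaches 0.606, 0.951 and 14.5 CPM. The 8-week values therefore carry wide error.

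At the edge of the rule, 34, 9 and 3 cells at P15, P25 and 8 weeks had exactly 2 Csf1r UMIs, and 56, 17 and 0 cells that met the other criteria had exactly 1 and were left out. At least 3 C1q UMIs were present in 61.8% of the P15 cells just inside and 66.1% of those just outside, and at P25 in 88.9% and 94.1%. The S100a8 and S100a9 criterion removed 29, 2 and 0 cells. Libraries shared 26 (P15 and P25), 16 (P15 and 8 weeks) and 13 (P25 and 8 weeks) cell barcodes, of which 0 belonged to Csf1r cells.

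Of the 5 markers given for these cells, Csf1r, Tyrobp and Fcer1g were used by the rule, and Ctss and Laptm5 were not. Csf1r itself, part of the rule, was at 883 CPM at P15, 759.7 at P25 and 1203 at 8 weeks, against 3.36, 1.76 and 1.42 CPM in the other cells. Tyrobp (DAP12, chr7:30413760-30417585 on GRCm38) and Fcer1g (chr1:171229572-171234365), the signaling adaptors that the rule also used, were at 2341 and 2144 CPM at P15. At P25 they were at 1566 and 1772 CPM, and at 8 weeks at 2601 and 2907 CPM. Ctss, the cysteine protease cathepsin S that trims the invariant chain of MHC class II, was at 1557, 1215 and 1285 CPM, against 8.14, 2.28 and 0.511 CPM in other cells. Laptm5, a lysosomal membrane protein of blood cells, was at 875, 1222 and 697 CPM, against 15.4, 4.04 and 0.711 CPM. Laptm5 was also present in other blood cells. In cells with at least 1% of UMIs from S100a8 and S100a9 it was at 270, 275 and 751 CPM, where Ctss was at 62.9, 97.9 and 125 CPM. At 8 weeks, on 3 such cells, Laptm5 thus did not separate the Csf1r cells from them. Ctss and Laptm5 were at least 2-fold higher in the Csf1r cells in each library; over all genes past the same floor of 20 CPM, 13.5% at P15, 19.9% at P25 and 16.5% at 8 weeks were.

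Promoters are shown for 3 genes that separate these cells or move with age and whose windows held a motif match. The matching letters are in capitals, and the 3 were picked with that match as a condition. The PU.1-type letters GAGGAAGT, for the myeloid factor encoded by Spi1, were searched on both strands, as was TCACGTGA, an E-box of lysosomal genes that reads the same on both. Sequences run 5' to 3' from 250 bases before to 10 bases after the RefSeq start site (GRCm38.p6): Ctss on the plus strand at chr3:95526536-95526795, C1qc on the minus strand at chr4:136892905-136893164, and Ctsd on the minus strand at chr7:142387818-142388077.
Ctss: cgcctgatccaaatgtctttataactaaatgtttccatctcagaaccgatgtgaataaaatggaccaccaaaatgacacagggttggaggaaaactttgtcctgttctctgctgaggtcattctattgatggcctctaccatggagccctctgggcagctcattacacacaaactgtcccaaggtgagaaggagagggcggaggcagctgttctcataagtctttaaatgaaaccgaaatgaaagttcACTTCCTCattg
C1qc: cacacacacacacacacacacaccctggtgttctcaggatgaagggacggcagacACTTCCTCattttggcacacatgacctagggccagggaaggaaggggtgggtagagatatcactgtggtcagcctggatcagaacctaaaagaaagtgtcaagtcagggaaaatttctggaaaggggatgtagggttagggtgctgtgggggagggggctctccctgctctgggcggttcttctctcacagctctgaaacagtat
Ctsd: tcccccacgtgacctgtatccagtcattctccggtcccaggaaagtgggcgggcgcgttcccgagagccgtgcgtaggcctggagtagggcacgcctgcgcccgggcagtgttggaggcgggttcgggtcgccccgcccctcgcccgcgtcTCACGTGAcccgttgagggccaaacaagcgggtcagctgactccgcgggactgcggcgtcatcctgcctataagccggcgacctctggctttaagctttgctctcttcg
The reverse complement of GAGGAAGT lay at bases 249 to 256 of the Ctss window, over the start site, and at bases 56 to 63 of the C1qc window. GAGGAAGT was present in 3.20% of 32851 RefSeq promoter windows of 27025 genes. It was in 1 of 3 marker windows, 2 of 18 windows of the macrophage list (C1qc and F13a1), 1 of 10 of the lysosome list (Ctsc), 1 of 16 of the osteoclast lineage list (Itgav) and 0 of 5 of the antigen presentation list. TCACGTGA lay at bases 152 to 159 of the Ctsd window and was present in 0.974% of all windows. It was in 1 of 10 lysosome windows and 1 of 16 osteoclast lineage windows (Clcn7), and in 0 of the marker, macrophage and antigen presentation windows. A match of letters is a description of these windows and not a measured binding site.

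The macrophage list was compared with the other cells of each library. Of 18 macrophage list genes, 18 at P15, 17 at P25 and 17 at 8 weeks were at least 2-fold higher than in other cells (13.5%, 19.9% and 16.5% of all genes were), which the choice of cells favors, and the list summed to 25816, 32871 and 50951 CPM. The 20 genes with the largest excess over other cells in all 3 libraries were C1qa, C1qb, C1qc, Ctss, Mrc1, Cd74, Ms4a7, H2-Aa, Pf4, Csf1r, H2-Ab1, Apoe, Ccl7, Aif1, Cx3cr1, Fcer1g, Laptm5, Cd68, Rgs1 and H2-Eb1. Csf1r and Fcer1g among them were used by the rule, 8 were of the macrophage list, 4 (Cd74, H2-Aa, H2-Ab1 and H2-Eb1) of the antigen presentation list, and Pf4 of the megakaryocyte list. C1qa, a chain of the complement starter C1q, had the largest excess of them at P15 and P25. At 8 weeks Cd74 and H2-Aa had a larger one (log2 ratios of 9.61 and 8.95 against 8.65). C1qa was at 2893 CPM at P15, 4705 at P25 and 4591 at 8 weeks, against 7.37, 8.90 and 1.42 CPM in the other cells. Its gene and those of the other two chains neighbour each other at chr4:136895917-136898803 (C1qa), chr4:136880129-136886187 (C1qb) and chr4:136889804-136893065 (C1qc). Apoe, a lipid carrier, was the most abundant macrophage list gene at 12668, 14975 and 31972 CPM. Mrc1, the mannose receptor CD206, was at 1069, 1664 and 1767 CPM. The F4/80 gene Adgre1 was found in 79.1%, 99.5% and 87.0% of Csf1r cells.

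**Figure D1:**
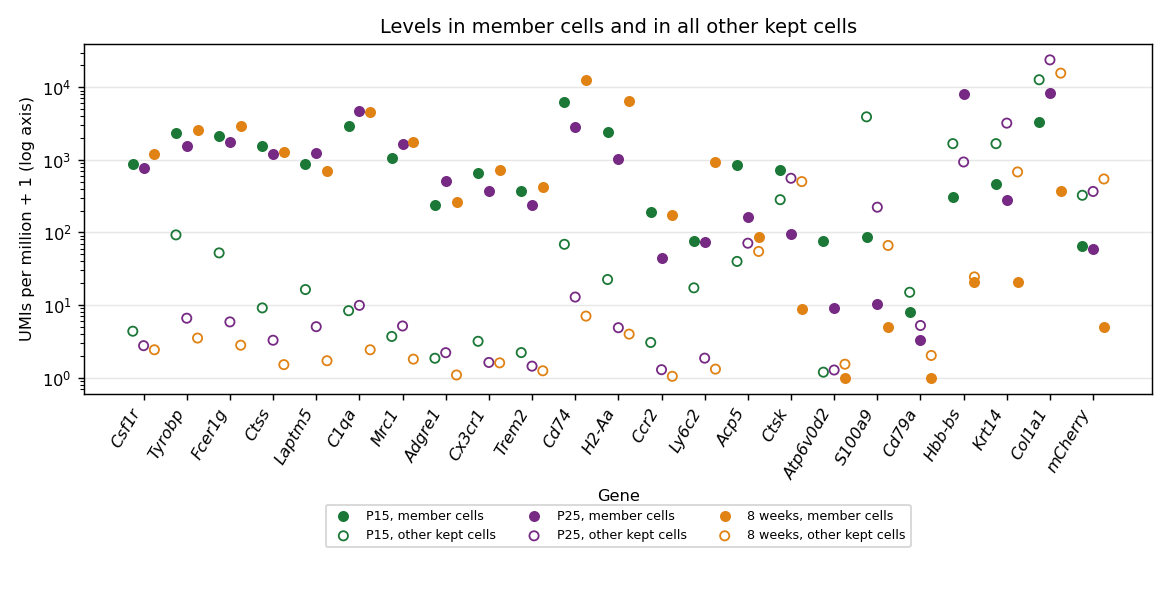
Levels of 23 genes in Csf1r cells (filled) and all other kept cells (open) of each library, as CPM + 1 on a log axis, with 1 summed value per library. Markers and C1qa stand over 10 times above the other cells in each library, while Col1a1 and mCherry stand below them.

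Cells within the population were not alike. To compare shares of cells at equal depth, each cell was thinned to 3000 UMIs, which left 374, 185 and 22 Csf1r cells, and a cell could pass several gates. The C1q gate (at least 3 UMIs of C1qa, C1qb and C1qc) was passed by 76.7% of Csf1r cells at P15 (72.1 to 80.9%), 95.1% at P25 (90.97 to 97.8%) and 86.4% at 8 weeks (65.1 to 97.1%). In other kept cells it was passed by 0.180%, 0.278% and 0%. The monocyte gate (at least 2 UMIs of Ly6c2 and Ccr2) was passed by 17.9% at P15 (14.2 to 22.2%), 4.32% at P25 (1.89 to 8.34%) and 13.6% at 8 weeks (2.91 to 34.9%), and by 1.77%, 0.126% and 0.0479% of other cells. The antigen presentation gate (at least 10 UMIs of H2-Aa, H2-Ab1, H2-Eb1 and Cd74) was passed by 35.8% (31.0 to 40.9%), 27.6% (21.3 to 34.6%) and 77.3% (54.6 to 92.2%), and by under 1% of other cells in each library. In these libraries the C1q share was higher and the monocyte share lower at P25 than at P15, and the antigen presentation share at 8 weeks lay above both, on 22 cells. With 1 library per age, cells are not replicates of an age, and the intervals do not cover variation between libraries. The cycling gate (at least 2 UMIs of Mki67 and Top2a) was passed by 4.28%, 6.49% and 4.55%, against 4.51%, 5.08% and 1.39% of other cells, and the intervals of the Csf1r cells overlapped between ages. In the summed profiles 4 of 7 cycling genes were at least 2-fold higher at P25 than at P15 and 0 lower. The 4 were Mki67, Top2a, Cdk1 and Birc5. Among all genes 7.45% were higher and 2.35% lower. The median log2 ratio of the list was 1.02, against 0.13 over all genes and 0.35 for the list in other cells. Mki67 was at 60.9 and 135.8 CPM at P15 and P25, and at 77.6 CPM at P25 without the 8 erythroid-rich cells described below. Without thinning the shares were 79.1%, 96.8% and 86.96% for C1q, 33.9%, 8.02% and 26.1% for monocyte, 41.0%, 47.6% and 78.3% for antigen presentation and 9.80%, 14.4% and 8.70% for cycling, so the order of P15 and P25 turned for antigen presentation.

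**Figure D2:**
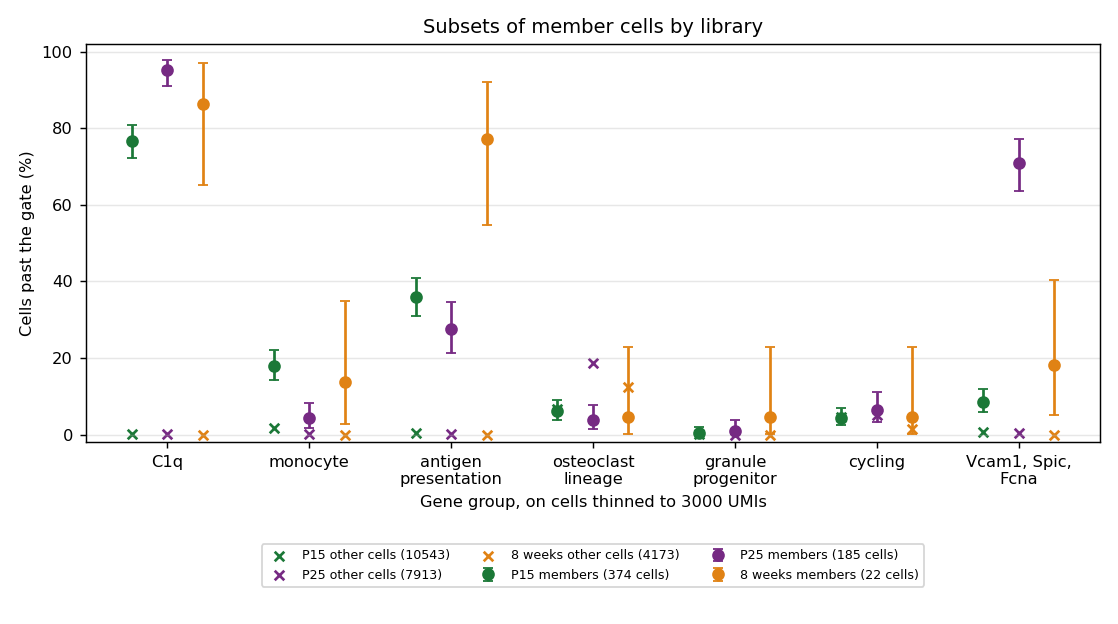
Share of Csf1r cells past each gate (circles, with exact 95% intervals) and of other kept cells (crosses), in percent, on cells thinned to 3000 UMIs. The gate of Vcam1, Spic and Fcna stands at 70.8% at P25 and 8.56% at P15. The osteoclast lineage gate is at or under the level of the other cells in each library, but its gene Ctsk is also present in those cells.

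Between P15 and P25 the summed profiles were compared gene by gene. Of 7022 genes with at least 20 CPM in the higher library, 523 were at least 2-fold higher at P25 (7.45%) and 165 were at least 2-fold lower (2.35%), on log2 of CPM + 10, and the median gene was 0.13 higher on that scale. In such sums a larger share of cells with a gene and more UMIs per cell cannot be told apart, so shares of cells are given for some genes. With TMM scaling, which brings that median to about 0, the counts were 432 higher and 223 lower. Per its file header the P25 table came from Cell Ranger 6.0.1, against 6.1.2 for the other tables, though the labels give 6.1.2 for all, and it lists 32293 features against 22056. What this does to a single gene cannot be told apart from age, so the ratio in other kept cells is given for some genes. The makeup of those cells also differed between ages. Cells with at least 1% of UMIs from S100a8 and S100a9 were 4.17% of kept cells at P15 and 0.204% at P25. Cells with at least 3 UMIs of the B cell genes Cd79a and Cd79b were 1.47% and 0.432%. The part of this makeup in the ratios of other cells was not tested. Of the 278 higher genes that the other cells also measured, 63 were at least 2-fold higher at P25 there too, and of 91 lower genes 52 were lower there. How many of all 5469 genes measured in both moved 2-fold in the other cells was not counted. These counts therefore have no background beside them and are not read as a shared effect. Atp6v0c, a proton pump subunit, is an example of a gene higher in both: it was at 16.6, 859 and 3.92 CPM at P15, P25 and 8 weeks, and its log2 ratio of P25 to P15 was 5.03 in Csf1r cells and 4.59 in the other cells.

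**Figure D3:**
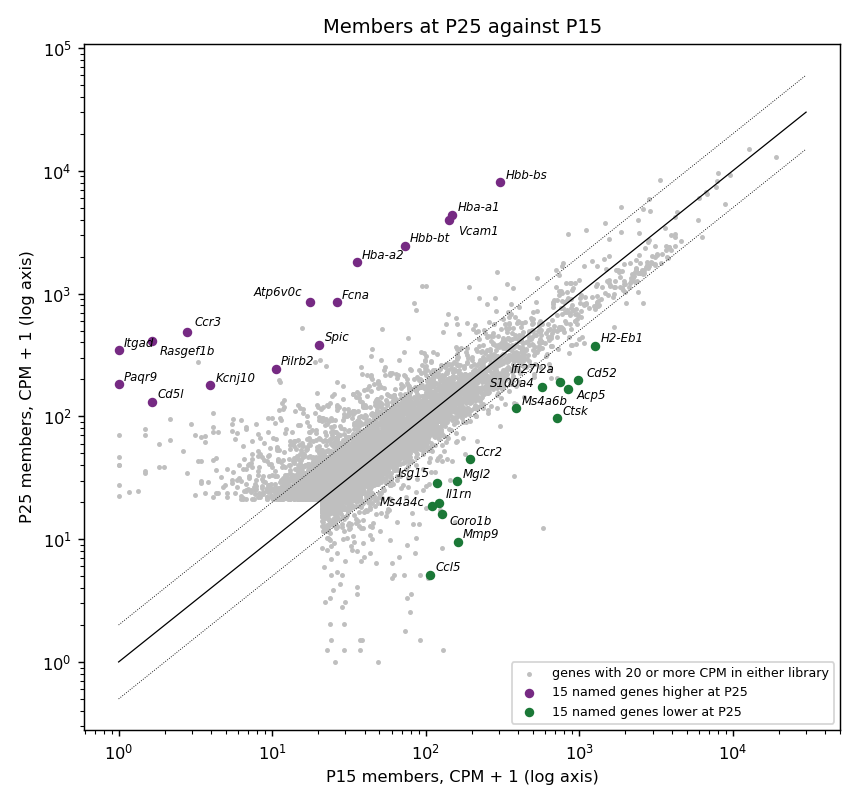
CPM + 1 of each gene in Csf1r cells at P15 (x axis) and P25 (y axis), both log axes; grey points are genes of at least 20 CPM in either library, colored points the 15 highest and 15 lowest named genes, and dotted lines a 2-fold ratio. Vcam1, Fcna, Spic, Ccr3 and the hemoglobin genes lie above the lines, and Mmp9, Ctsk, Acp5, Ccr2 and H2-Eb1 below.

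The 15 genes with the largest ratio at P25 included Vcam1, Spic and Fcna. Vcam1 (chr3:116109949-116129688), an adhesion molecule that binds integrins, was at 140.4 CPM at P15, 3949.9 at P25 and 278 at 8 weeks, a P25 to P15 ratio of 28.1 (26.3 to 30.2), and UMIs were found in 27.1%, 81.8% and 43.5% of cells. In other cells Vcam1 had a log2 ratio of 0.06. Spic (chr10:88674772-88685015), the transcription factor of red pulp macrophages, was at 19.2, 380.5 and 118 CPM, a ratio of 19.8 (16.4 to 24.1). Fcna (chr2:25624666-25628030), which encodes the lectin ficolin A, was at 25.3, 847 and 15.7 CPM, a ratio of 33.5 (28.5 to 39.6). P25 was the highest library for all 3 genes, and for Vcam1 and Spic 8 weeks lay between. Ccr3, a chemokine receptor best known from eosinophils, was at 1.81 CPM at P15, 489.5 at P25 and 0 at 8 weeks, a ratio of 271 (151 to 544). Itgad (chr7:128154376-128223816), the integrin CD11d, had 0 UMIs at P15 and at 8 weeks and 343 CPM at P25, a ratio to P15 with an exact lower limit of 565. Cd5l, a secreted macrophage protein, had 4 UMIs at P15 (0.657 CPM) and 129.9 CPM at P25, with 0 UMIs at 8 weeks. Rasgef1b, Kcnj10, Pilrb2 and Paqr9 completed the set with 412, 178, 242 and 181 CPM at P25, against 0.657, 2.96, 9.53 and 0 CPM at P15. At 8 weeks Rasgef1b, Kcnj10 and Paqr9 had 0 UMIs and Pilrb2 was at 39.2 CPM. Apart from Vcam1, Atp6v0c and the hemoglobin genes, the genes of this set named here were at 0.435 to 6.69 CPM in the other cells at P25, so a ratio there says little about them.

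Nearly all cells with Vcam1, Spic and Fcna also passed the C1q gate, as most Csf1r cells did. A gate of at least 3 UMIs of these genes, chosen after their values were seen, was passed by 8.56% of thinned Csf1r cells at P15 (5.93 to 11.9%), 70.8% at P25 (63.7 to 77.2%) and 18.2% at 8 weeks (5.19 to 40.3%), and by under 1% of other cells. Unthinned, the shares were 21.1%, 79.7% and 47.8%, against 3.70%, 2.96% and 0.788%. Of the cells past it, all 32 P15 cells, 130 of 131 P25 cells and all 4 cells of 8 weeks were past the C1q gate. Of all thinned Csf1r cells 76.7%, 95.1% and 86.4% were, so at P25 and 8 weeks these counts lie near that share. Among C1q cells themselves it was passed by 32 of 287 at P15 (11.1%, 7.75 to 15.4%), 130 of 176 at P25 (73.9%, 66.7 to 80.2%) and 4 of 19 at 8 weeks (21.1%, 6.05 to 45.6%). Within the C1q cells Vcam1 was at 193, 4228 and 399 CPM and Spic at 25.5, 406 and 152 CPM. In the same cells Slc40a1, which encodes the iron exporter ferroportin, was at 132, 1222 and 112 CPM, and Hmox1, the heme-degrading enzyme, at 227, 1213 and 1516 CPM. The higher level at P25 was thus also present within C1q cells, and for Hmox1 the 8-week level was as high.

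Hemoglobin transcripts had another distribution. Hba-a1, Hba-a2, Hbb-bs and Hbb-bt were at 4384, 1792, 8027 and 2454 CPM at P25, against 147, 34.5, 304 and 71.8 CPM at P15, and the erythroid list summed to 561, 16693 and 35.3 CPM, against 2880, 1894 and 48.7 CPM in other cells. At P25, 5 cells held 85.8% of these UMIs. The 8 Csf1r cells of P25 with at least 1% erythroid UMIs (4.28% of them) had 2.13 to 50.9% of their own UMIs in the list, a median of 42756 UMIs, 4 to 41 Csf1r UMIs, and 0 doublet calls. Hbb-bs was at 107888 CPM in these 8 cells and 98.2 CPM in the remaining P25 cells. Alas2, the heme synthesis enzyme of red cell precursors, was at 477 and 0.835 CPM, Car2 (carbonic anhydrase) at 2772 and 17.8 CPM, and the proliferation gene Mki67 at 869 and 77.6 CPM. All 8 cells passed the C1q gate and 7 the gate of Vcam1, Spic and Fcna. At P15, 1 Csf1r cell had at least 1% erythroid UMIs. Without such cells the counts between P15 and P25 were 518 higher and 161 lower. The log2 ratio of P25 to P15 was then 1.55 in place of 5.34 for Hba-a2, 1.14 in place of 4.91 for Hbb-bt, 1.35 in place of 4.81 for Hba-a1 and 0.83 in place of 4.68 for Hbb-bs, which was no longer past 2-fold.

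On the antigen presentation list, H2-Aa, H2-Ab1, H2-Eb1 and Cd74 were lower at P25 than at P15 and highest at 8 weeks. Of the 6 list genes past the floor, 0 were at least 2-fold higher and 4 at least 2-fold lower at P25. The shares of all genes were 7.45% higher and 2.35% lower. The median log2 ratio of the list was -1.18, against 0.13 over all genes. Cd74, the invariant chain, was at 6298 CPM at P15, 2872 at P25 and 12512 at 8 weeks. H2-Aa (chr17:34282744-34287823), an MHC class II alpha chain, was at 2412, 1023 and 6416 CPM. The beta chain genes H2-Ab1 (chr17:34257689-34269419) and H2-Eb1 (chr17:34305867-34316674) were at 2589, 842 and 4916 CPM and at 1269, 375 and 2217 CPM, with P25 to P15 ratios of 0.325 (0.313 to 0.338) and 0.295 (0.279 to 0.312). The peptide exchange genes H2-DMa and H2-DMb1 were at 226, 121 and 384 CPM and at 179, 108 and 294 CPM. H2-Aa UMIs were nevertheless found in more cells at P25 (55.1%) than at P15 (42.7%), at a higher median depth. The same list had a median log2 ratio of -1.01 in other cells, where the 6 genes were at 2.01 to 22.5 CPM at P25. Cd79a, of B cells that also use these genes, was at 13.997 and 4.23 CPM in the other cells at P15 and P25, and its part in their ratio was not tested.

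The overlap of the antigen presentation cells with the Vcam1, Spic and Fcna cells depended on depth. Of 134 thinned cells past the antigen presentation gate at P15, 81 passed the C1q gate, 44 the monocyte gate and 1 the gate of Vcam1, Spic and Fcna. At P25, 49 of 51 passed the C1q gate and 32 of 51 (62.7%, 48.1 to 75.9%) the gate of Vcam1, Spic and Fcna. At 8 weeks 17 of 17 passed the C1q gate and 3 of 17 the Vcam1, Spic and Fcna gate. Without thinning, the latter gate was passed by 13 of 163 antigen presentation cells at P15 (7.98%, 4.31 to 13.3%), beside 71 of the remaining 235 cells (30.2%, 24.4 to 36.5%). At P25 it was passed by 68 of 89 (76.4%, 66.2 to 84.8%) beside 81 of 98 (82.7%, 73.7 to 89.6%). In the P15 cells past the antigen presentation gate, H2-Aa was at 6448 CPM and C1qa at 1720.5 CPM, against 20.9 and 3573 CPM in the rest.

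**Figure D4:**
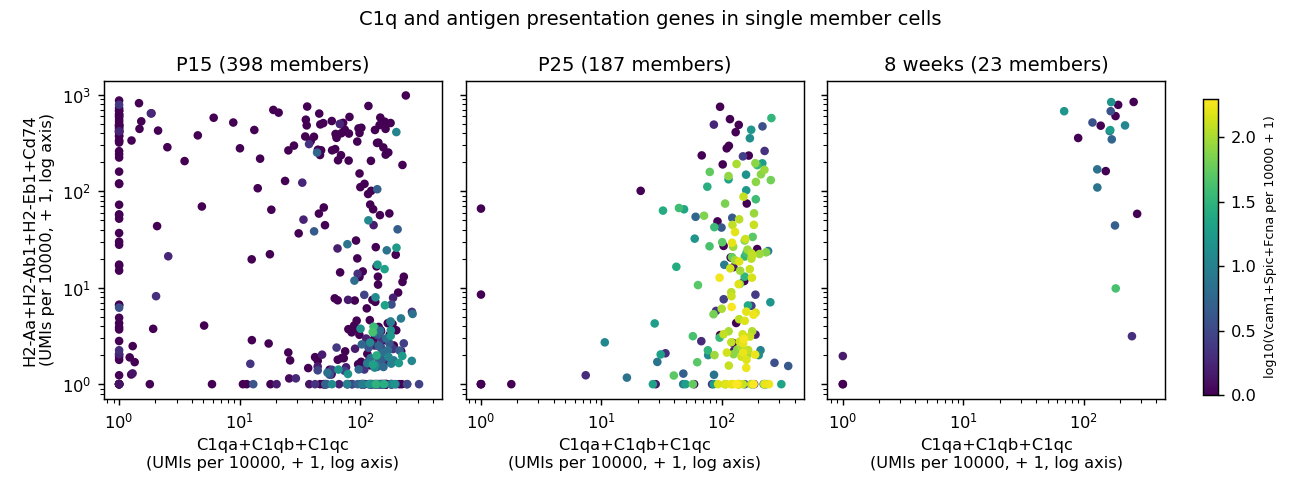
C1q genes (x axis) against MHC class II genes and Cd74 (y axis) in each Csf1r cell, as UMIs per 10000 plus 1 on log axes, for P15, P25 and 8 weeks; color gives log10 of Vcam1, Spic and Fcna UMIs per 10000 plus 1. Of 374 thinned P15 cells, 81 are past both the C1q and the antigen presentation gate and 34 past neither, while 176 of 185 thinned P25 cells are past the C1q gate and the bright Vcam1 cells sit among them.

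Monocyte and dendritic cell genes marked a smaller share of cells. Ccr2, the receptor that brings monocytes out of marrow, was at 193 CPM at P15, 43.8 at P25 and 172 at 8 weeks, a P25 to P15 ratio of 0.227 (0.193 to 0.267), with UMIs in 37.4%, 9.09% and 26.1% of cells. Ly6c2, of inflammatory monocytes, was found in 32, 7 and 3 cells (75.4, 72.4 and 936 CPM). The monocyte list of 12 genes had 9 past the floor, with Chil3 and Treml4 at least 2-fold higher and Ccr2 and Plac8 lower at P25 (7.45% and 2.35% of all genes were), and a median log2 ratio of 0.08 against 0.13 over all genes and -1.18 for the list in other cells. At P15, the 67 cells past the monocyte gate had Ccr2 at 764 CPM, Ly6c2 at 438 CPM, H2-Aa at 5075 CPM and C1qa at 1213 CPM. The remaining 307 thinned cells had 80.3, 3.58, 1903 and 3211 CPM. Of these 67 cells, 44 passed the antigen presentation gate and 33 the C1q gate. Of 9 dendritic cell genes 4 were past the floor, and Cd209a (74.6, 2.32 and 43.1 CPM), a lectin of monocyte-derived dendritic cells, and Itgax (43.9, 11.6 and 0 CPM), the integrin CD11c, were at least 2-fold lower at P25 (2.35% of all genes were). The median log2 ratio of the 4 was -0.98, against 0.13 over all genes and -0.08 for the list in other cells. Flt3, the growth factor receptor of dendritic cells, was at 7.06 CPM at P15 with 0 UMIs in the other libraries, and Xcr1 and Clec9a, which define the cross-presenting type, had 0 UMIs in every library. Among P15 cells past the antigen presentation gate, Cd209a was at 199 CPM, Itgax at 109 CPM and Flt3 at 19.0 CPM, against 0.530, 4.77 and 0 CPM in the rest. Genes of granule progenitors stood at 795 (Mpo), 537 (Elane) and 834 (Prtn3) CPM at 8 weeks, and 98.8% of the UMIs of that list came from 1 cell.

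Most osteoclast lineage UMIs at P15 came from few cells. The list of 18 genes summed to 2205, 905 and 427 CPM (615, 813 and 719.8 CPM in other cells). The P25 to P15 comparison had 12 list genes past the floor. Acp5, Ctsk, Mmp9 and Atp6v0d2 were at least 2-fold lower at P25 and Car2 higher, beside 2.35% and 7.45% of all genes. The median log2 ratio of the list was 0.04, against 0.13 over all genes. The size of the lower levels of these 4 genes rested on 6 cells of P15 described below. Car2, the most abundant list gene at P25, was at 37.3 and 220.4 CPM at P15 and P25, but at 17.8 CPM at P25 without the 8 erythroid-rich cells described above, below the P15 level. Acp5, the tartrate-resistant acid phosphatase of osteoclasts, was at 838 CPM at P15, 164 at P25 and 86.2 at 8 weeks, a ratio of 0.196 (0.180 to 0.213). Ctsk, the bone collagen protease cathepsin K, was at 714, 95.4 and 7.83 CPM, but at 282, 556 and 501 CPM in the other cells. Mmp9, a gelatinase, was at 160.1, 8.51 and 168 CPM. Tnfrsf11a (RANK), the receptor for the osteoclast signal RANKL, was present throughout at 63.6, 59.3 and 39.2 CPM, against under 1 CPM in other cells. Its ligand gene Tnfsf11 was at 1.15, 1.29 and 0 CPM. Nfatc1, a transcription factor that osteoclast formation requires, was at 66.5, 40.0 and 27.4 CPM.

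At P15, 6 Csf1r cells had at least 1% of UMIs in the list, and at P25 and 8 weeks 0 did. Such cells were not all within the rule: by a shorter set of Acp5, Mmp9, Atp6v0d2, Dcstamp, Ocstamp and Calcr, 7 kept cells of P15 reached 1%, of which 4 were Csf1r cells, 2 had 0 Csf1r UMIs and 1 had 1. Those 3 cells are counted among the other cells. The 5 richest P15 cells held 65.6% of the list's UMIs, and without the 5 richest cells of each library the list summed to 782, 740.4 and 303 CPM. In these 6 cells, which had a median of 36721.5 UMIs and 7 to 64 Csf1r UMIs, Acp5 was at 16396 CPM and Ctsk at 15714 CPM, against 206 and 105 CPM in the remaining 392. Mmp9 was at 3818 and 11.6 CPM, and Atp6v0d2, a proton pump subunit of osteoclasts, at 1385 and 21.7 CPM. The fusion genes Ocstamp and Dcstamp were at 198 and 101 CPM against 11.1 and 14.7 CPM. Oscar and Siglec15, receptors of the osteoclast lineage, had 11 and 7 UMIs in the 6 cells and 0 UMIs in the rest, and the calcitonin receptor gene Calcr had 2 and 0. C1qa, Adgre1 and Cx3cr1 had 0 UMIs in these cells, Csf1r was at 699 CPM against 891 CPM, and Ctss was at 71.6 against 1618 CPM. These cells were chosen on their UMIs of the list, so their higher levels of its genes follow from that choice. Cells that met the macrophage and monocyte rule thus included 6 with an osteoclast gene set and without C1qa. Without them Acp5, Ctsk, Mmp9 and Atp6v0d2 were at 206, 105, 11.6 and 21.7 CPM at P15 against 164, 95.4, 8.51 and 7.99 CPM at P25, and none of the 4 was 2-fold apart on the CPM + 10 scale. Without the cells of at least 1% mesenchymal UMIs as well, Ctsk was at 76.95 CPM at P15 and 12.99 CPM at P25, a log2 ratio of -1.92, so most of its level at P25 came from mesenchymal-rich cells. Acp5, Mmp9 and Atp6v0d2 then had log2 ratios of -0.33, -0.74 and -0.82. Col1a1 was at 7038 CPM in the 6 cells, against 3196 CPM in the rest, but 2 of them had 6.54% and 5.53% mesenchymal UMIs and the other 4 had 0.0453 to 0.143%. The osteoclast lineage gate on thinned cells was passed by 6.15% (3.94 to 9.08%), 3.78% (1.53 to 7.64%) and 4.55% (0.115 to 22.8%), which was not above the 6.83%, 18.8% and 12.5% of other cells. That gate includes Ctsk, which was at 282, 556 and 501 CPM in other cells. There Acp5 was at 38.9, 70.1 and 53.8 CPM and Mmp9 at 51.6, 18.9 and 16.8 CPM. The gate therefore does not compare how many osteoclast-type cells the 2 groups held. Unthinned, it was passed by 25.6%, 46.5% and 34.8%, against 57.5%, 76.8% and 54.8%.

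Lysosomal genes were abundant and in part higher at P25. Of 12 list genes past the floor, Ctsb, Ctsd and Lipa were at least 2-fold higher at P25 and 0 lower. Among all genes 7.45% were higher and 2.35% lower. The median log2 ratio of the list was 0.38, against 0.13 over all genes and 0.28 for the list in other cells. Ctsb (cathepsin B) was at 1881, 5107 and 2323 CPM, a ratio of 2.71 (2.65 to 2.78). Ctsd, the aspartic protease cathepsin D whose promoter is shown above, was at 849, 3062 and 748 CPM, a ratio of 3.61 (3.49 to 3.73), with a log2 ratio of 0.70 in other cells. Lipa, the lysosomal acid lipase, was at 128, 488 and 208 CPM.

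Of 13 engulfment receptor list genes past the floor, Mertk, Axl, Timd4 and Tlr4 were at least 2-fold higher at P25 and Msr1 lower. Among all genes 7.45% were higher and 2.35% lower. The median log2 ratio of the list was -0.02, against 0.13 over all genes and -0.09 for the list in other cells. Axl, which binds the bridging protein GAS6, was at 93.5, 1160.0 and 184 CPM, a ratio of 12.4 (11.4 to 13.6). Its relative Mertk was at 71.4, 335 and 50.9 CPM. In other cells the log2 ratio was 0.83 for Axl and -0.82 for Mertk. Timd4 (chr11:46810800-46844332), the phosphatidylserine receptor TIM4 of resident macrophages, was at 10.0, 196 and 35.3 CPM, a ratio of 19.6 (15.1 to 25.8), with UMIs in 7.04%, 58.3% and 13.04% of cells. Of 18 macrophage list genes past the floor, Adgre1, Mertk and Cd163 were at least 2-fold higher at P25 and Lyve1 and F13a1 lower (7.45% and 2.35% of all genes were), with a median log2 ratio of 0.23 against 0.13 over all genes. Cd163, the hemoglobin scavenger receptor, was at 107, 277 and 427 CPM. Lyve1, a hyaluronan receptor of perivascular macrophages, was at 70.8, 4.12 and 39.2 CPM, and F13a1, the coagulation factor XIII subunit, at 389, 176 and 869.6 CPM. P25 was the highest library for Axl, Mertk and Timd4 and the lowest for Lyve1 and F13a1.

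Genes of secreted signals differed in both directions. Of 18 cytokine and chemokine genes past the floor, Il1a and Il18 were at least 2-fold higher at P25 (7.45% of all genes were). Ccl12, Cxcl2, Il1b, Il1rn, Tnf and Osm were at least 2-fold lower (2.35% of all genes were). The median log2 ratio of the list was -0.71, against 0.13 over all genes and -0.07 for the list in other cells. Il1b was at 947, 386 and 1049.8 CPM, with a log2 ratio of -2.04 in other cells, and the neutrophil chemokine gene Cxcl2 at 1670.2, 533 and 1590.4 CPM. At P15 Il1b was at 1118 CPM in the cells rich in S100a8 and S100a9, whose share among other cells was lower at P25. Tnf was at 123, 46.4 and 50.9 CPM, and Il18 at 38.4, 162 and 23.5 CPM. The monocyte chemokine genes Ccl2 and Ccl7 were at 1262, 741 and 6405 CPM and at 908, 734 and 4340.3 CPM, so that 8 weeks was the highest library. Of 13 growth factor genes past the floor, Pdgfb, Pdgfc, Bmp2 and Grn were at least 2-fold higher at P25 and Sema4d lower. Among all genes 7.45% were higher and 2.35% lower. The median log2 ratio of the growth factor list was 0.66, against 0.13 over all genes and 0.15 for the list in other cells. Pdgfb and Pdgfc, ligands of mesenchymal PDGF receptors, were at 25.8, 118 and 47.0 CPM and at 18.6, 122 and 23.5 CPM. Bmp2, an osteogenic ligand, was at 49.8, 143 and 23.5 CPM, against 205 CPM in other cells at 8 weeks. Pth1r, the receptor for PTHrP, was at 12.8, 11.6 and 0 CPM, against 56.2, 42.5 and 47.6 CPM in other cells.

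Of 11 regulators past the floor, Irf8, Klf4 and Id2 were at least 2-fold higher at P25 and 0 lower. Among all genes 7.45% were higher and 2.35% lower. The median log2 ratio of the regulators was 0.35, against 0.13 over all genes and 0.22 for the list in other cells. Spi1, the gene of PU.1, was at 335, 242 and 372 CPM. Irf8, which drives monocyte and macrophage fate, was at 111, 331 and 121 CPM, and Id2, an inhibitor of basic helix-loop-helix factors, at 221, 917 and 501 CPM. Of 6 interferon response genes, 0 were higher and Isg15 (117, 27.8 and 19.6 CPM) and Ifi27l2a (752, 188 and 302 CPM) lower (7.45% of all genes were higher and 2.35% lower), with a median log2 ratio of -0.50 against 0.13 over all genes and -0.07 for the list in other cells. The remaining genes of the 15 lowest at P25 were Ccl5, Coro1b, Cd52, Il1rn, Mgl2, Ms4a4c, S100a4 and Ms4a6b. Of these, Mgl2, a lectin of dendritic and alternatively activated cells, was at 159, 28.6 and 415 CPM, and Cd52, a leukocyte surface glycoprotein, at 978, 195 and 729 CPM. Cd52 and Coro1b were also lower at P25 in other cells, with log2 ratios of -2.44 and -1.83, and S100a4 was higher there, with 2.58. In other cells Cd52 was at 73.4, 5.32 and 1.96 CPM and Coro1b at 49.4, 6.69 and 46.8 CPM. Only Coro1b was thus near its P15 level again at 8 weeks. The share of neutrophil and B cells among other cells was lower after P15, and its part in these ratios was not tested.

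Markers of other cell types were measured in the same sums. The 9 mesenchymal genes summed to 11942, 23894 and 1308 CPM, against 47333, 78979 and 66347 CPM in other cells, and Col1a1, the most abundant, was at 3346, 8344 and 376 CPM. At least 1% mesenchymal UMIs were found in 48 P15 cells (12.1%), 32 P25 cells (17.1%) and 0 cells of 8 weeks, with a median of 24434 and 34434.5 UMIs, and 24 and 20 of them were called doublets. Neutrophil genes, which the rule limited, summed to 249, 39.4 and 58.8 CPM against 9070, 516 and 125 CPM. T and NK cell genes summed to 0.493, 0.258 and 7.83 CPM (3, 1 and 2 UMIs) against 7.63, 0.557 and 0.511 CPM, and mast cell genes to 0.985, 0 and 0 CPM against 68.1, 0.0512 and 0.178 CPM. B lineage genes summed to 82.0, 139.97 and 35.3 CPM against 160.9, 67.5 and 106.7 CPM, and at P25 83.8% of the sum was Cd79b. Cd79b was at 38.6, 117 and 35.3 CPM, and Cd79a at 7.06, 2.32 and 0 CPM, with 4.23 CPM in other cells at P25. Megakaryocyte genes summed to 2020.4, 845 and 4093 CPM against 11.3, 8.72 and 7.98 CPM. Of these Pf4 was at 2019, 844 and 4093 CPM while Itga2b and Gp9 were under 2 CPM. Endothelial genes summed to 53.5, 11.6 and 15.7 CPM against 43.3, 9.001 and 9.71 CPM, with Cdh5 and Kdr under 4 CPM. Krt14, a keratin of epithelium, was at 471, 282 and 19.6 CPM, against 1669, 3201 and 680 CPM in other cells. The epithelial genes summed to 699, 449 and 31.3 CPM against 2289.9, 4369.7 and 970.1 CPM, and the Schwann cell genes to 7.72, 1.29 and 0 CPM against 39.5, 12.2 and 13.5 CPM. Immediate early and heat shock genes summed to 12326, 10539.5 and 10032 CPM against 11661, 12514 and 19643 CPM, and Fos, the most abundant at P15, was at 3955, 2274 and 1673 CPM, against 3944, 3720 and 6361 CPM in other cells. The part of mixed cells, free RNA and dissociation in the differences between ages was not tested; without the cells of at least 1% mesenchymal UMIs the counts were 552 genes higher and 194 lower at P25.

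The reporter that defined the sort was low in these cells. mCherry was at 64.7, 59.0 and 3.92 CPM, against 324, 366 and 544 CPM in other cells, and Pthlh, the gene it reports, at 21.7, 44.1 and 3.92 CPM against 154, 194 and 229 CPM. An mCherry UMI was found in 21.9% of Csf1r cells at P15 (17.9 to 26.3%), 21.4% at P25 (15.7 to 27.97%) and 1 of 23 cells at 8 weeks (4.35%, 0.110 to 21.9%), against 62.1%, 83.03% and 81.9% of other cells. Thinned to 3000 UMIs the shares were 7.49%, 6.49% and 0%, against 36.0%, 51.7% and 61.2%. Cells with at least 1% mesenchymal UMIs held 63.2% of the mCherry UMIs of Csf1r cells at P15 and 87.8% at P25. Among Csf1r cells under 1% mesenchymal UMIs, the thinned share was 5.45% (3.26 to 8.48%), 1.96% (0.406 to 5.62%) and 0% (up to 15.4%). Most of these cells thus carried no detected mCherry transcript at this depth.

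**Figure D5:**
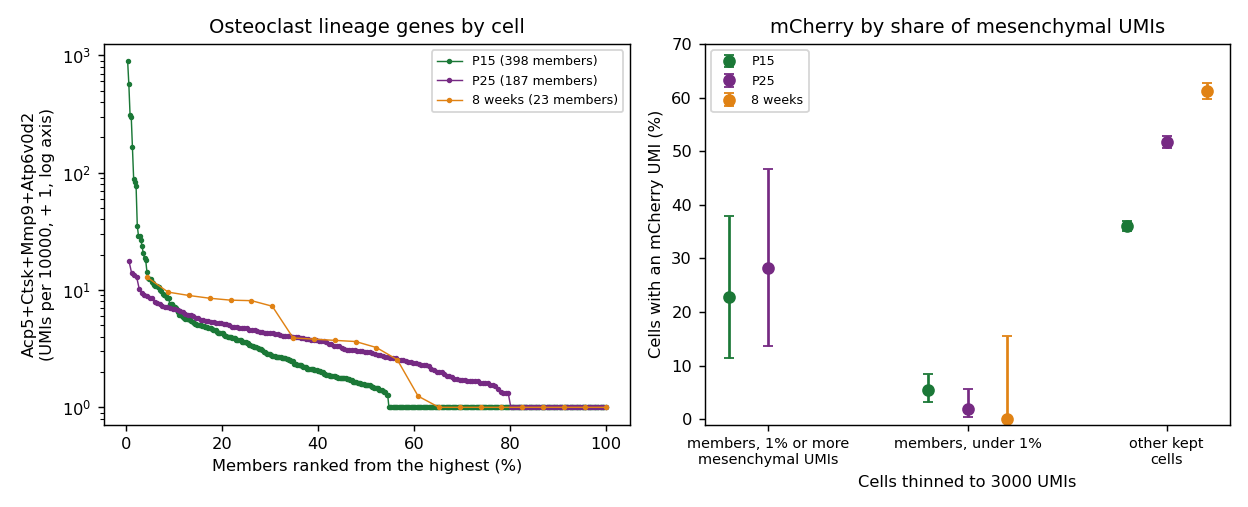
Left, Acp5, Ctsk, Mmp9 and Atp6v0d2 UMIs per 10000 plus 1 (log axis) in each Csf1r cell, ranked from the highest, per library; a few P15 cells stand far above the rest. Right, percent of cells thinned to 3000 UMIs with an mCherry UMI, with exact 95% intervals, for Csf1r cells of at least 1% and under 1% mesenchymal UMIs and for other kept cells: 22.7%, 5.45% and 36.0% at P15.

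Another group of blood cells in the libraries had at least 1% of UMIs from S100a8 and S100a9, 476 at P15, 17 at P25 and 3 at 8 weeks. Both groups carried Tyrobp (2236 CPM in these cells at P15) and Lyz2 (7756 CPM against 4350.0 in Csf1r cells). Il1b was at 1118, 1230.5 and 6132 CPM in them, against 947, 386 and 1049.8 CPM in Csf1r cells. At P15 they differed in Csf1r (42.1 against 883 CPM), C1qa (40.9 against 2893 CPM), Csf3r, the neutrophil growth factor receptor (294 against 24.97 CPM), and Cebpe, a granulocyte factor (229 against 0.985 CPM). They made up 4.17%, 0.204% and 0.0653% of kept cells. These levels describe groups that the rule itself set apart.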

How the data were processed

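Raw UMI count matrices, as deposited by the authors, were used; the authors made them with Cell Ranger on mm10. Per the labels the version was 6.1.2; per the file headers it was 6.1.2 for P15 and 8 weeks and 6.0.1 for P25, whose table lists 32293 features against 22056. The annotation is not given in the sources used here. The tables held 12926, 8971 and 5192 cells. Members and gene lists were chosen with earlier results of these data known.

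Counts were summed per library over members and over all other kept cells and divided by the sum over the 21446 shared gene identifiers. Ratios had exact conditional binomial intervals, levels Poisson intervals and shares Clopper-Pearson intervals, at 95%. A gene counted as higher or lower past 2-fold of CPM + 10, with at least 20 CPM in the higher sum. Named genes were the markers, list genes that the text describes, the 15 highest and 15 lowest at P25 against P15 (at least 100 CPM in the higher library and 2 times the other cells), and the 20 with the largest smallest excess over other cells. Doublets were scored with Scrublet in scanpy 1.11.5 and kept in. Its automatic threshold called 415 P15 cells, 0 P25 cells and 8 cells of 8 weeks, and the highest scores (500 and 275 cells) replaced it for P25 and 8 weeks; 35, 28 and 2 Csf1r cells were called. With 1 library per age, no test was run. Alternatives were TMM scaling (edgeR 4.0.16), filters, gates, rules and left-out cells. On simulated data the intervals held the true ratio of P25 to P15 in 94 to 96% of genes, and 4-fold genes were counted in 100%, 0.25-fold genes in 88% and 2-fold genes in 8% (21446 genes per run). The simulated sums were Poisson counts without variation between cells or libraries, which is what the intervals assume. They check the calculation and not the error of these data. Scripts ran in R 4.3.3 and Python 3.11.15, with pandas 2.3.3, scipy 1.17.1 and numpy 2.4.6. Promoter sequences are RefSeq's (GRCm38.p6), and gene positions GENCODE's on GRCm38. Entries were matched by symbol for 3 of 5 markers, 13 of 18 macrophage, 9 of 12 lysosome, 10 of 18 osteoclast lineage and 4 of 7 antigen presentation genes.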

Additional observations from a re-analysis of the deposited data

How the results depend on the processing

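No paired analysis was possible because each age had 1 library. Alternatives had no replicate error to be set against, and a value is called moved here where it left its counting interval; the cause was not tested, beyond what each alternative leaves in or out. The share of Csf1r cells at P15 (3.49%) was 3.102% over all deposited cells, 2.97% under a stricter rule (at least 4 Csf1r and 6 Tyrobp and Fcer1g UMIs), 4.01% under a looser one and 3.07% without cells of at least 1% mesenchymal UMIs; at P25 (2.25%) it was 1.86% without them. With a floor of 100 CPM in place of 20 CPM, 240 genes were higher and 79 lower at P25; with no floor 566 and 184, without doublet calls 582 and 194. The 30 named genes stayed past 2-fold in the same direction under TMM scaling, the mean over cells, without mesenchymal-rich cells and without the richest cell of each gene. Without erythroid-rich cells Hbb-bs did not (log2 ratio 0.83 in place of 4.68), and Hba-a2, Hbb-bt and Hba-a1 fell from 5.34 to 1.55, 4.91 to 1.14 and 4.81 to 1.35. Without the 6 osteoclast-rich cells of P15, a choice made after seeing the data, Acp5, Ctsk and Mmp9 did not stay past 2-fold (log2 ratios -0.31, -0.13 and -0.22), and the counts were 511 higher and 156 lower. Without these and the mesenchymal-rich cells Acp5 and Mmp9 did not (-0.33 and -0.74), while Ctsk was at -1.92, against -2.78 with all cells and -4.95 without mesenchymal-rich cells alone.

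Without thinning, the gates were passed by 33.9% (monocyte, P15), 41.0% and 47.6% (antigen presentation, P15 and P25), 25.6%, 46.5% and 34.8% (osteoclast lineage, P15, P25 and 8 weeks), 9.80% and 14.4% (cycling, P15 and P25) and 21.1%, 79.7% and 47.8% (Vcam1, Spic and Fcna), so the order of P15 and P25 in antigen presentation turned with depth. With gates at 2 times the UMIs the shares were 6.68% (monocyte, P15), 3.48%, 0% and 0% (osteoclast lineage), 0% (granule progenitor, P25), 0% (cycling, 8 weeks), and 2.14% and 62.7% (Vcam1, Spic and Fcna, P15 and P25). Without doublet calls the granule progenitor and cycling shares at 8 weeks were 0%. The osteoclast lineage sum (2205, 905 and 427 CPM) was 1176 and 822 CPM at P15 and P25 as a mean over cells, 1491 and 809 CPM without Ctsk, 2324 and 941 CPM without mesenchymal-rich cells, 2558, 972 and 517 CPM without doublet calls, and 782, 740.4 and 303 CPM without the 5 richest cells, a choice made after seeing the data, as were the gate of Vcam1, Spic and Fcna and leaving out erythroid-rich cells or the richest cell of each gene. The difference between P15 and P25 in that sum thus rested mainly on 5 cells. At 8 weeks, 23 cells limit every value.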
